A study of Mus musculus with 6 samples.

Results

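The 37 interferon-stimulated genes described here, among the 46095 gene symbols of a mouse RNA sequencing table, were chosen by symbol, as the target genes and regulators of the interferon response. They comprise 4 transcription factors, 4 nucleic acid sensors, 6 enzymes that act on double-stranded RNA or are related to such enzymes, and 3 IFIT genes. The others are 4 genes of the ISG15 system, 3 PARP genes grouped with Dtx3l, and 12 other effectors. All 37 were found in the table, and all 37 passed the filter on low counts, with between 74 and 8371 counts in any library.

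The cells were primary cultures from the nucleus pulposus, the soft core of the intervertebral disc, at passage 2, from mice of 8 weeks of age that the labels give as male. Chsy3 encodes a chondroitin sulfate synthase, and the 3 genotypes were Chsy3 knockout (labelled Chsy3KO), Chsy3 heterozygous and wild type, with 2 libraries each. No library is labelled as treated with interferon or another stimulus. The sources used here do not give the strain, the kind of Chsy3 allele or whether animals were pooled.

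Interferons are secreted proteins that bind receptors at the cell surface, and receptor kinases such as Jak1 and Tyk2 then phosphorylate STAT proteins. Stat2 joins Irf9 in the complex ISGF3, which binds the interferon-stimulated response element in the promoters of target genes. The targets encode sensors of foreign nucleic acid, proteins that block steps of virus growth, and regulators that amplify or dampen the response. Macrophages and fibroblasts both carry the pathway, and low tonic expression without infection is known in both.

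Libraries held 29622117 to 33899611 counts. Chsy3 itself had 3.58 and 2.23 CPM (counts per 1000000 counts of the library, scaled by TMM factors) in knockout, 5.79 and 6.20 CPM in heterozygous and 8.35 and 8.36 CPM in wild type, an order that follows the labels. Its log2 fold change was -1.53 ± 0.20 (SE) in knockout and -0.48 ± 0.19 in heterozygous relative to wild type (edgeR, adjusted p = 3.59e-08 and 0.0444). The Y-linked genes Ddx3y, Uty, Kdm5d and Eif2s3y had 0 counts in both heterozygous libraries, against summed levels of 70.5 to 76.8 CPM in knockout and 59.4 to 60.3 CPM in wild type, which goes against the male label of the heterozygous libraries. This difference and the genotype cannot be told apart in any comparison with heterozygous. Between knockout and wild type all libraries had Y-linked counts. Of 15 nucleus pulposus and notochord markers 9 were tested, and T, Noto and Shh had 0 counts in every library. The list summed to 106 to 108 CPM in knockout, 176 to 183 CPM in heterozygous and 113 to 116 CPM in wild type. Macrophage markers summed to 17379 to 20454 CPM and fibroblast markers to 27112 to 49254 CPM. The cells are called nucleus pulposus here on the strength of their label. Acan, the main proteoglycan of disc and cartilage, had 8 counts in wild-type library 1 and 0 in the other 5 libraries.

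The promoters of 6 of the genes are shown because the core of the interferon-stimulated response element, the sequence that ISGF3 binds, can be read in them next to the genes whose levels are given afterwards. They come from RefSeq windows on GRCm38.p6 that run from 250 bases before a gene's start to 50 bases after it, and are the 6 with the smallest p-values among the genes with a match. Each is written 5′ to 3′ on the strand of the gene, and capitals mark matches of the core, which was searched as GAAA, any 2 bases and GAAA again, on that strand or on the other.
Isg15 (chr4:156200819-156200956, minus strand): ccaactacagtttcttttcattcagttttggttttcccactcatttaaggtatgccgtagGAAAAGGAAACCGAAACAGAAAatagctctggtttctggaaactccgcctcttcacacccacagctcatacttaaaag
Ifit1 (chr19:34640725-34640873, plus strand): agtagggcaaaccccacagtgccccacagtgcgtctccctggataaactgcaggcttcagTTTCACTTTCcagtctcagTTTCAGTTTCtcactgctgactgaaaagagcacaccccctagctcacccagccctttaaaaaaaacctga
Bst2 (chr8:71537527-71537662, minus strand): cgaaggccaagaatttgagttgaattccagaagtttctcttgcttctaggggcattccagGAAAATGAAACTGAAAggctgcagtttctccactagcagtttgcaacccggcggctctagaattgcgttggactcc
Oas3 (chr5:120777665-120777794, minus strand): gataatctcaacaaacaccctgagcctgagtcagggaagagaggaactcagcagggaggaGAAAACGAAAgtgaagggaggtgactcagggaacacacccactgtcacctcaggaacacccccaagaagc
Rsad2 (chr12:26456503-26456632, minus strand): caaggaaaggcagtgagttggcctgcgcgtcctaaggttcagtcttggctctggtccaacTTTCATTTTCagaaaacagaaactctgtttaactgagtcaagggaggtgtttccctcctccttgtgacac
Trim30a (chr7:104465194-104465289, minus strand): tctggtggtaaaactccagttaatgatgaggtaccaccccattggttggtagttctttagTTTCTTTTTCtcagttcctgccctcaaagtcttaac

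In Isg15 3 matches overlap in a single run, and in Bst2 2 matches do. Ifit1 has 2 separate matches on the opposite strand. Of the 37 genes, 27 had a promoter window, and 11 of these 27 (40.7%) held the core on either strand, against 1079 of the 27025 genes with a window (3.99%). The core followed by a C was found in 9 of 27 (33.3%), against 0.944% of genes, and every such match contains a match of the core. The gamma-activated sequence TTCNNNGAA, which reads the same on both strands, was found in 6 of 27 (22.2%), against 9.55% of genes, and 1 of its 6 matches overlapped one of the core. The genes with the response element core were Stat2, Ifih1, Ddx58, Eif2ak2, Oas3, Ifit1, Ifit3, Isg15, Rsad2, Bst2 and Trim30a. Their 17 matches started between 222 bases before and 33 bases after a gene start, and 11 of the 17 started within the 150 bases before it. Genes without a window were Dhx58, Zbp1, Oas2, Usp18, Parp9, Parp14, Mx1, Mx2, Rtp4 and Ifi27l2a. A match is a description of the letters and not evidence of binding.

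**Figure D1:**
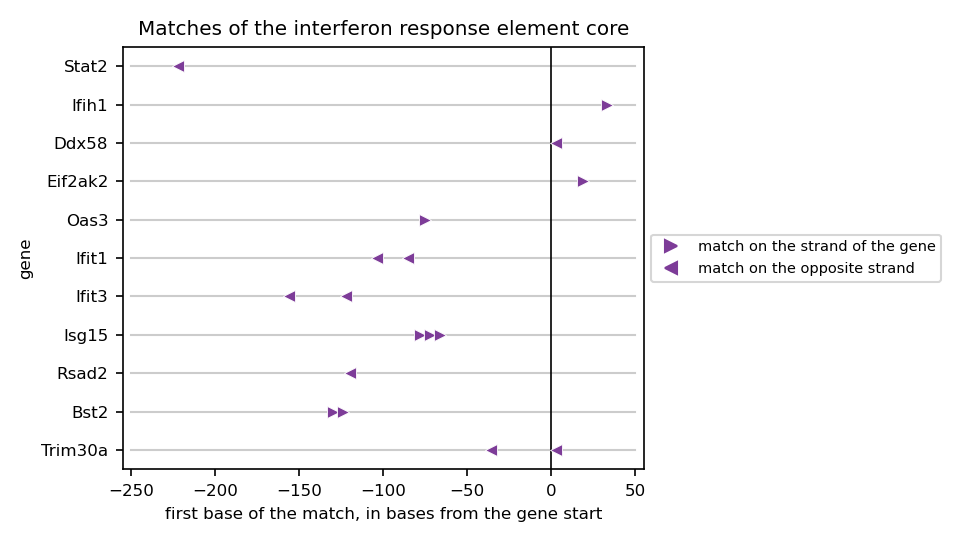
Each row is a gene with at least 1 match of the response element core, the horizontal axis gives the first base of the match in bases from the gene start, and arrowheads give the strand. The first bases of the 3 overlapping matches of Isg15 are at -78, -72 and -66, and Trim30a shows the matches of both of its windows.

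Across the 3 genotypes the heterozygous libraries were the lowest for every one of the 37 genes. Summed over the 37 genes, the level was 3602 ± 11.5 CPM in knockout, 1888 ± 22.9 CPM in heterozygous and 2951 ± 3.61 CPM in wild type (SD, n = 2 each). For 34 genes the mean was highest in knockout, and for Isg15, Mx2 and Ifi35 it was highest in wild type. In heterozygous relative to wild type all 37 fell (Benjamini-Hochberg adjusted p at most 0.0214 by the quasi-likelihood test of edgeR), where 19.7% of all tested genes were lower and 38.9% changed in either direction, and their median log2 fold change was -0.77, against -0.0029 for all genes. In knockout relative to wild type 27 rose, 1 fell and 9 did not pass the threshold, where 19.2% of all tested genes were higher, 18.9% lower and 38.0% changed in either direction, with a median log2 fold change of 0.27, against -0.0031 for all genes. In knockout relative to heterozygous all 37 rose (edgeR, adjusted p at most 2.88e-05), where 19.1% of all tested genes were higher and 37.1% changed in either direction, with a median of 1.14, against 0.012 for all genes. Each pair of comparisons shares a genotype, so the 3 sets of counts are not independent of each other. Nothing in the labels says that libraries of 1 genotype are separate animals or cultures, and the p-values therefore measure the spread between these libraries, which may be technical.

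**Figure D2:**
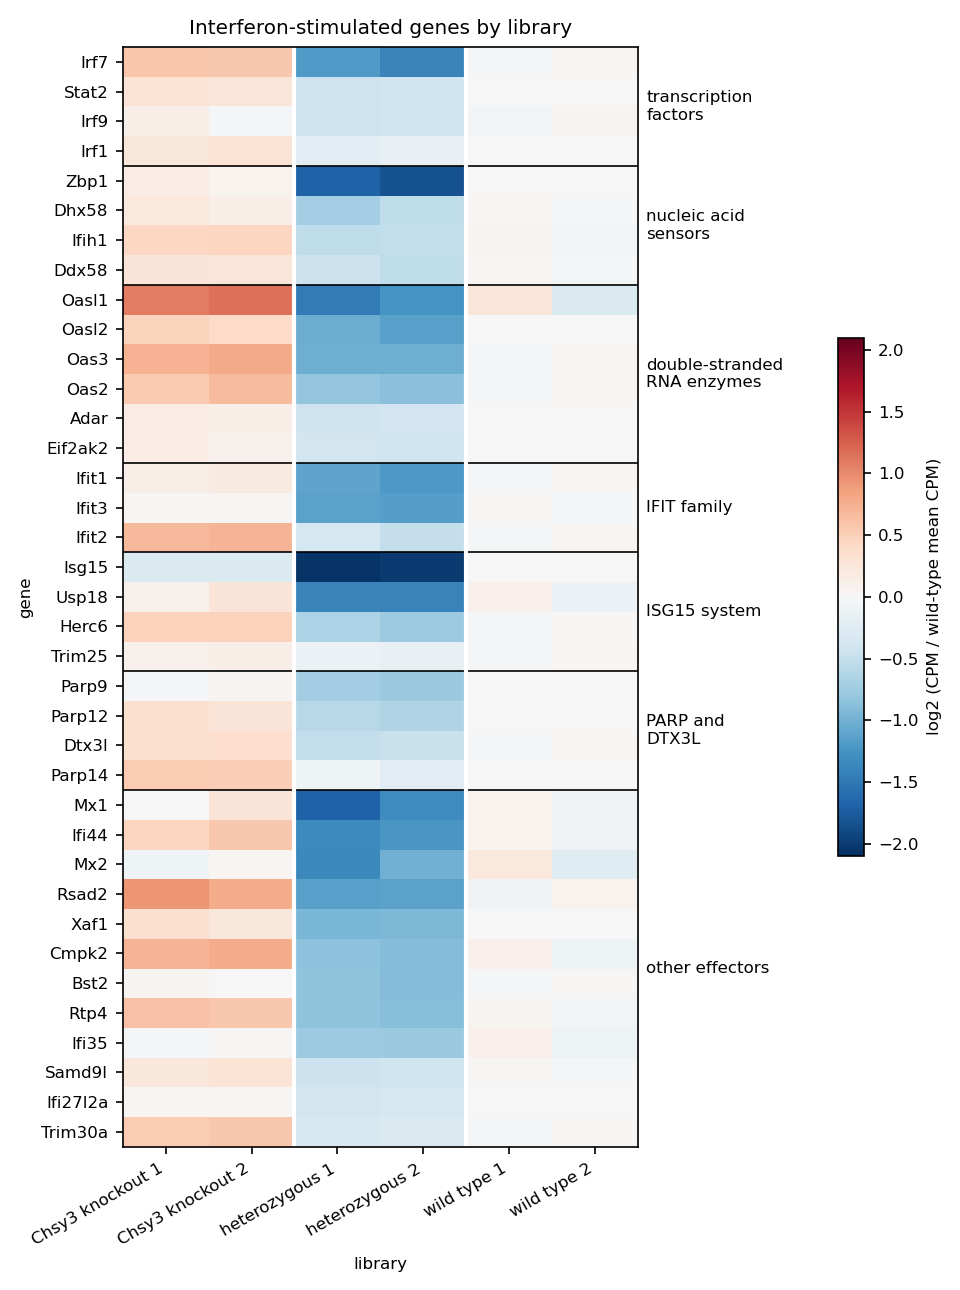
Rows are the 37 genes grouped by role, columns are the 6 libraries, and colour gives log2 of CPM over the wild-type mean. Both heterozygous columns are blue in all rows, and the knockout columns are red in most rows, with Isg15 blue in both.

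The libraries of heterozygous and wild type did not overlap for any of the 37 genes, against 67.0% of all genes, nor did those of knockout and heterozygous, against 65.7%. Those of knockout and wild type did not overlap for 29 of 37, against 66.6%. The overlapping genes were Irf9, Ifit3, Usp18, Parp9, Mx1, Mx2, Bst2 and Ifi35. At least 2-fold changes were present for 13 genes in heterozygous relative to wild type, all lower, where 3.07% of all genes were that much lower and 4.04% higher. For knockout relative to heterozygous there were 19, all higher, where 2.61% of all genes were higher and 3.69% lower. For knockout relative to wild type there was 1, Oasl1, which was higher, where 3.06% of all genes were higher and 3.77% lower.

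In bulk cultures fewer cells of a type and less RNA per cell cannot be told apart, and markers of macrophages, cells with high levels of many interferon-stimulated genes, moved with the genotypes. Relative to wild type, 19.2% of all tested genes rose and 18.9% fell in knockout, and 19.2% rose and 19.7% fell in heterozygous. All 20 macrophage markers were tested, 15 rose and 1 fell in knockout (median log2 0.30), and 11 rose and 5 fell in heterozygous (median log2 0.13). Their summed level was 20118 to 20321 CPM in knockout, 20354 to 20454 CPM in heterozygous and 17379 to 17673 CPM in wild type. Most of the higher heterozygous sum came from Lyz2, with 8845 ± 0.500 CPM in heterozygous and 7211 ± 125 CPM in wild type, and Mrc1, with 1853 ± 16.5 CPM in heterozygous and 751 ± 0.679 CPM in wild type (SD, n = 2 each). The 5 markers that fell in heterozygous were Ctss, Cx3cr1, Fcgr1, Fcer1g and C1qa. Without Lyz2 and Mrc1, a choice made after their values were seen, the other 18 markers summed to 11287 to 11456 CPM in knockout, 9645 to 9767 CPM in heterozygous and 9504 to 9623 CPM in wild type. Divided by the sum of all 20 macrophage markers, the 37 genes came to 17.8% ± 0.0697 in knockout, 9.25% ± 0.0805 in heterozygous and 16.8% ± 0.220 in wild type (SD, n = 2 each), and divided by the sum of the 18 markers to 31.7% ± 0.232 in knockout, 19.4% ± 0.0632 in heterozygous and 30.9% ± 0.309 in wild type. These are ratios of summed levels and do not count cells. The part of macrophages in the changes of the 37 genes was not tested. Fibroblast markers summed to 27112 to 27260 CPM in knockout, 48093 to 49254 CPM in heterozygous and 41685 to 42271 CPM in wild type, with 4 of 12 higher and 8 lower in knockout and 10 higher and 2 lower in heterozygous. Their part in the changes of the 37 genes was not tested.

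Among the transcription factors, Irf7, the factor that amplifies type I interferon production (chromosome 7, 141262706 to 141266481, minus strand), had the largest log2 fold change in each of the 3 comparisons. Irf7 stood at 107 and 105 CPM in the knockout libraries, 31.3 and 27.3 CPM in the heterozygous libraries and 69.5 and 72.8 CPM in the wild-type libraries. The 3 pairs of libraries do not overlap, and the heterozygous ones are well below both others. Its log2 fold change was 0.58 ± 0.06 (SE) in knockout relative to wild type (edgeR, adjusted p = 1.23e-11), -1.28 ± 0.06 in heterozygous relative to wild type (edgeR, adjusted p = 4.85e-21), and that of knockout relative to heterozygous was 1.86 ± 0.06 (edgeR, adjusted p = 6.39e-27). Stat2, a subunit of ISGF3 (chromosome 10, 128270559 to 128292849, plus strand), had 204 and 201 CPM in knockout, 124 and 125 CPM in heterozygous and 169 and 167 CPM in wild type. It was 1.21-fold higher in knockout than in wild type (log2 0.27 ± 0.04, edgeR, adjusted p = 4.27e-08), and heterozygous was at 74.1% of wild type (log2 -0.43 ± 0.04, edgeR, adjusted p = 5.96e-13).

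Irf9, the DNA-binding subunit of ISGF3, had 81.7 and 73.3 CPM in knockout, 55.6 and 56.3 CPM in heterozygous and 72.2 and 78.0 CPM in wild type. Only its heterozygous libraries stand apart, and the knockout and wild-type libraries overlap. Its log2 fold change was -0.42 ± 0.06 in heterozygous relative to wild type (edgeR, adjusted p = 9.94e-08), against 0.04 ± 0.06 in knockout relative to wild type (edgeR, adjusted p = 0.591). Irf1, a factor induced early by interferon gamma, had 47.5 and 49.1 CPM in knockout, 33.98 and 35.8 CPM in heterozygous and 40.1 and 40.0 CPM in wild type, a small but non-overlapping spread. Its increase in knockout was 0.27 ± 0.07 log2 (edgeR, adjusted p = 0.00126) and its heterozygous change -0.20 ± 0.07 (edgeR, adjusted p = 0.0214). The heterozygous call was lost without heterozygous library 1 or wild-type library 1 or 2 (edgeR, adjusted p = 0.159, 0.0788 and 0.0709) and in DESeq2 (adjusted p = 0.068), with a range of 0.0054 to 0.159 over 13 alternatives.

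Of the nucleic acid sensors, Zbp1, which binds left-handed nucleic acid and can start necroptosis, fell most in heterozygous. Zbp1 had 56.1 and 52.9 CPM in knockout, 15.5 and 14.2 CPM in heterozygous and 50.03 and 50.2 CPM in wild type, so heterozygous stood at 29.6% of wild type (log2 -1.76 ± 0.08, edgeR, adjusted p = 1.32e-22). The knockout libraries lay just above wild type without passing the threshold (log2 0.12 ± 0.07, edgeR, adjusted p = 0.166). The cytosolic RNA sensors moved less in heterozygous and more in knockout. Ifih1, which encodes MDA5, a sensor of long double-stranded RNA, had 75.5 and 76.2 CPM in knockout, 38.7 and 39.0 CPM in heterozygous and 57.9 and 53.9 CPM in wild type (knockout relative to wild type log2 0.44 ± 0.06, edgeR, adjusted p = 3.67e-08). Ddx58, which encodes RIG-I, had 166 and 164 CPM in knockout, 100.5 and 95.2 CPM in heterozygous and 140.4 and 134 CPM in wild type (log2 0.27 ± 0.04, edgeR, adjusted p = 7.47e-07). Both rose in knockout and fell in heterozygous, where the log2 fold changes were -0.53 ± 0.06 and -0.49 ± 0.04. Dhx58, a helicase that modulates both sensors, had 54.9 and 51.7 CPM in knockout, 28.6 and 32.6 CPM in heterozygous and 48.3 and 45.9 CPM in wild type. Its heterozygous change was -0.62 ± 0.07 log2 (edgeR, adjusted p = 1.81e-09). Its increase in knockout, 0.18 ± 0.07 log2 (edgeR, adjusted p = 0.0377), did not pass without knockout library 1 or wild-type library 2 (edgeR, adjusted p = 0.268 and 0.222), nor in DESeq2 (adjusted p = 0.106), with a range of 0.0184 to 0.268 over the alternatives.

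All 6 enzymes of double-stranded RNA and their relatives rose in knockout relative to wild type (median log2 0.52) and all 6 fell in heterozygous relative to wild type (median log2 -0.94). Oas2 and Oas3 make the oligoadenylates that switch on RNase L. Oas3 had 101 and 105 CPM in knockout, 29.7 and 29.9 CPM in heterozygous and 59.0 and 62.4 CPM in wild type. Oas2 had 93.8 and 101 CPM in knockout, 36.2 and 34.9 CPM in heterozygous and 62.3 and 65.5 CPM in wild type. Both thus show 3 separate levels with libraries of a genotype close together. In knockout relative to wild type the log2 fold change was 0.76 ± 0.06 for Oas3 and 0.61 ± 0.06 for Oas2 (edgeR, adjusted p = 1.94e-15 and 2.59e-12). In heterozygous relative to wild type it was -1.03 ± 0.06 and -0.85 ± 0.06 (edgeR, adjusted p = 4.84e-18 and 2.14e-15).

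Oasl2, an OAS-like protein with ubiquitin-like domains, had 233 and 223 CPM in knockout, 82.3 and 76.8 CPM in heterozygous and 168 and 171 CPM in wild type. It was 2.87-fold higher in knockout than in heterozygous (log2 1.52 ± 0.04, edgeR, adjusted p = 3.05e-30), the smallest p-value among the 37 genes. Its neighbour Oasl1, which in mouse represses the translation of Irf7, had the largest fold change of the 37 genes in knockout relative to wild type. Oasl1 had 15.0 and 15.7 CPM in knockout, 2.57 and 2.96 CPM in heterozygous and 8.41 and 5.77 CPM in wild type. The wild-type libraries differ from each other, yet both lie between the other pairs. The log2 fold change of Oasl1 was 1.12 ± 0.16 in knockout relative to wild type (edgeR, adjusted p = 1.39e-07) and -1.36 ± 0.19 in heterozygous relative to wild type (edgeR, adjusted p = 7.87e-08). Adar, which edits adenosine to inosine, and Eif2ak2, which encodes the kinase PKR, had the smallest fold changes of the 6. In knockout relative to wild type they were at 0.15 ± 0.04 and 0.12 ± 0.04 log2 (edgeR, adjusted p = 0.00313 and 0.0184), and in heterozygous at -0.41 ± 0.04 and -0.41 ± 0.04 (edgeR, adjusted p = 8.31e-11 and 1.29e-10). The knockout call of Eif2ak2 was lost without knockout library 1 or wild-type library 1 or 2 (edgeR, adjusted p = 0.193, 0.0774 and 0.0801, range over the alternatives 0.00467 to 0.193).

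The IFIT genes, whose products bind RNA and restrain translation of foreign transcripts, lie close together on chromosome 19. All 3 fell in heterozygous and 2 of the 3 rose in knockout. Ifit2 had 79.5 and 81.8 CPM in knockout, 38.2 and 34.9 CPM in heterozygous and 48.4 and 50.9 CPM in wild type. Ifit3, which is 7111 bases from Ifit2, had 67.2 and 66.4 CPM in knockout, 29.9 and 29.2 CPM in heterozygous and 66.4 and 63.7 CPM in wild type. Ifit2 was 1.62-fold higher in knockout than in wild type (log2 0.70 ± 0.06, edgeR, adjusted p = 4.68e-13), whereas the knockout and wild-type libraries of Ifit3 overlapped (log2 0.04 ± 0.06, edgeR, adjusted p = 0.669). In heterozygous relative to wild type the sizes ran the other way, with Ifit3 at -1.14 ± 0.06 and Ifit2 at -0.44 ± 0.06 log2 (edgeR, adjusted p = 5.02e-19 and 3.03e-07). The difference between the changes of Ifit2 and Ifit3 was not tested. Ifit1, a sensor of uncapped or incompletely capped RNA, had 97.7 and 102 CPM in knockout, 41.3 and 38.7 CPM in heterozygous and 86.1 and 91.9 CPM in wild type. Heterozygous was at 44.9% of wild type (log2 -1.15 ± 0.06, edgeR, adjusted p = 5.34e-21). Its small increase in knockout, 0.16 ± 0.05 log2 (edgeR, adjusted p = 0.0106), was lost without knockout library 2 or wild-type library 1 (edgeR, adjusted p = 0.123 and 0.18, range over the alternatives 0.00365 to 0.18).

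Isg15, a ubiquitin-like protein that is joined to other proteins or secreted (chromosome 4, 156199424 to 156200818, minus strand), changed most in heterozygous and was the single gene of the 37 that fell in knockout. Isg15 had 60.04 and 59.5 CPM in knockout, 17.7 and 18.3 CPM in heterozygous and 73.0 and 74.5 CPM in wild type. The 3 pairs of libraries are separate, with wild type on top. The heterozygous mean was 24.5% of wild type (log2 -2.03 ± 0.07, edgeR, adjusted p = 7.31e-27) and the knockout mean 81.0% (log2 -0.30 ± 0.06, edgeR, adjusted p = 5.51e-05), while knockout exceeded heterozygous 3.31-fold (edgeR, adjusted p = 5.39e-24).

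Usp18, which removes ISG15 from its targets and dampens receptor signalling, had 44.2 and 50.1 CPM in knockout, 15.8 and 15.6 CPM in heterozygous and 44.5 and 38.1 CPM in wild type. Its heterozygous libraries stand at 38.0% of wild type (log2 -1.39 ± 0.09, edgeR, adjusted p = 1.68e-17), and its knockout and wild-type libraries overlap. The knockout call (log2 0.19 ± 0.08, edgeR, adjusted p = 0.048) was lost without knockout library 2 or wild-type library 2 (edgeR, adjusted p = 0.504 and 0.569), in DESeq2 (adjusted p = 0.147) and with a replicate block (edgeR, adjusted p = 0.0506), with a range of 0.00556 to 0.569. Herc6, the ligase that attaches ISG15 in mouse, had 43.9 and 44.0 CPM in knockout, 19.8 and 18.5 CPM in heterozygous and 30.8 and 32.0 CPM in wild type, at 0.49 ± 0.08 log2 in knockout relative to wild type (edgeR, adjusted p = 9.9e-07) and -0.72 ± 0.08 in heterozygous relative to wild type (edgeR, adjusted p = 1.13e-09). Trim25, a ubiquitin ligase that acts on RIG-I, had the smallest difference between knockout and heterozygous (0.25 ± 0.05 log2), with 107 and 111 CPM in knockout, 92.6 and 90.2 CPM in heterozygous and 97.3 and 104 CPM in wild type. Its log2 fold changes were 0.12 ± 0.05 in knockout and -0.14 ± 0.05 in heterozygous relative to wild type (edgeR, adjusted p = 0.0458 and 0.0204). The knockout call of Trim25 was lost without knockout library 2 or wild-type library 1 (edgeR, adjusted p = 0.289 and 0.398), in DESeq2 (adjusted p = 0.106) and with no filter on low counts (edgeR, adjusted p = 0.0563), with a range of 0.0158 to 0.398. The heterozygous call was lost without heterozygous library 2 or wild-type library 2 (edgeR, adjusted p = 0.112 and 0.261) and in DESeq2 (adjusted p = 0.0754), with a range of 0.00253 to 0.261.

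The PARP genes encode enzymes that add ADP-ribose to proteins, and Dtx3l encodes a ubiquitin ligase that works in a complex with Parp9. Parp14 had 246 and 243 CPM in knockout, 159.8 and 145 CPM in heterozygous and 168 and 172 CPM in wild type. Its knockout libraries stand apart (log2 0.53 ± 0.04 relative to wild type, edgeR, adjusted p = 1.03e-15), and its heterozygous libraries lie just under wild type (log2 -0.16 ± 0.04, edgeR, adjusted p = 0.00108). That second call was lost without heterozygous library 2 (edgeR, adjusted p = 0.11, range over the alternatives 4.84e-05 to 0.11). Parp9 showed the other pattern, with 61.9 and 65.9 CPM in knockout, 38.2 and 36.7 CPM in heterozygous and 63.1 and 63.2 CPM in wild type, at -0.75 ± 0.06 log2 in heterozygous relative to wild type (edgeR, adjusted p = 1.77e-13), against 0.02 ± 0.06 in knockout relative to wild type (edgeR, adjusted p = 0.863). Dtx3l had 100.2 and 101 CPM in knockout, 55.2 and 57.2 CPM in heterozygous and 76.6 and 81.3 CPM in wild type, a log2 fold change of 0.35 ± 0.05 in knockout and -0.49 ± 0.05 in heterozygous relative to wild type (edgeR, adjusted p = 2.92e-07 and 3.63e-10). Dtx3l and Parp9 run in opposite directions and overlap by 682 bases on chromosome 16, so without a stated strand setting reads of the overlap cannot be assigned to either. Parp12 had 102 and 97.6 CPM in knockout, 53.7 and 51.9 CPM in heterozygous and 81.1 and 80.3 CPM in wild type, at 0.30 ± 0.05 and -0.61 ± 0.05 log2 in knockout and heterozygous relative to wild type (edgeR, adjusted p = 3.64e-06 and 6.84e-13).

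**Figure D3:**
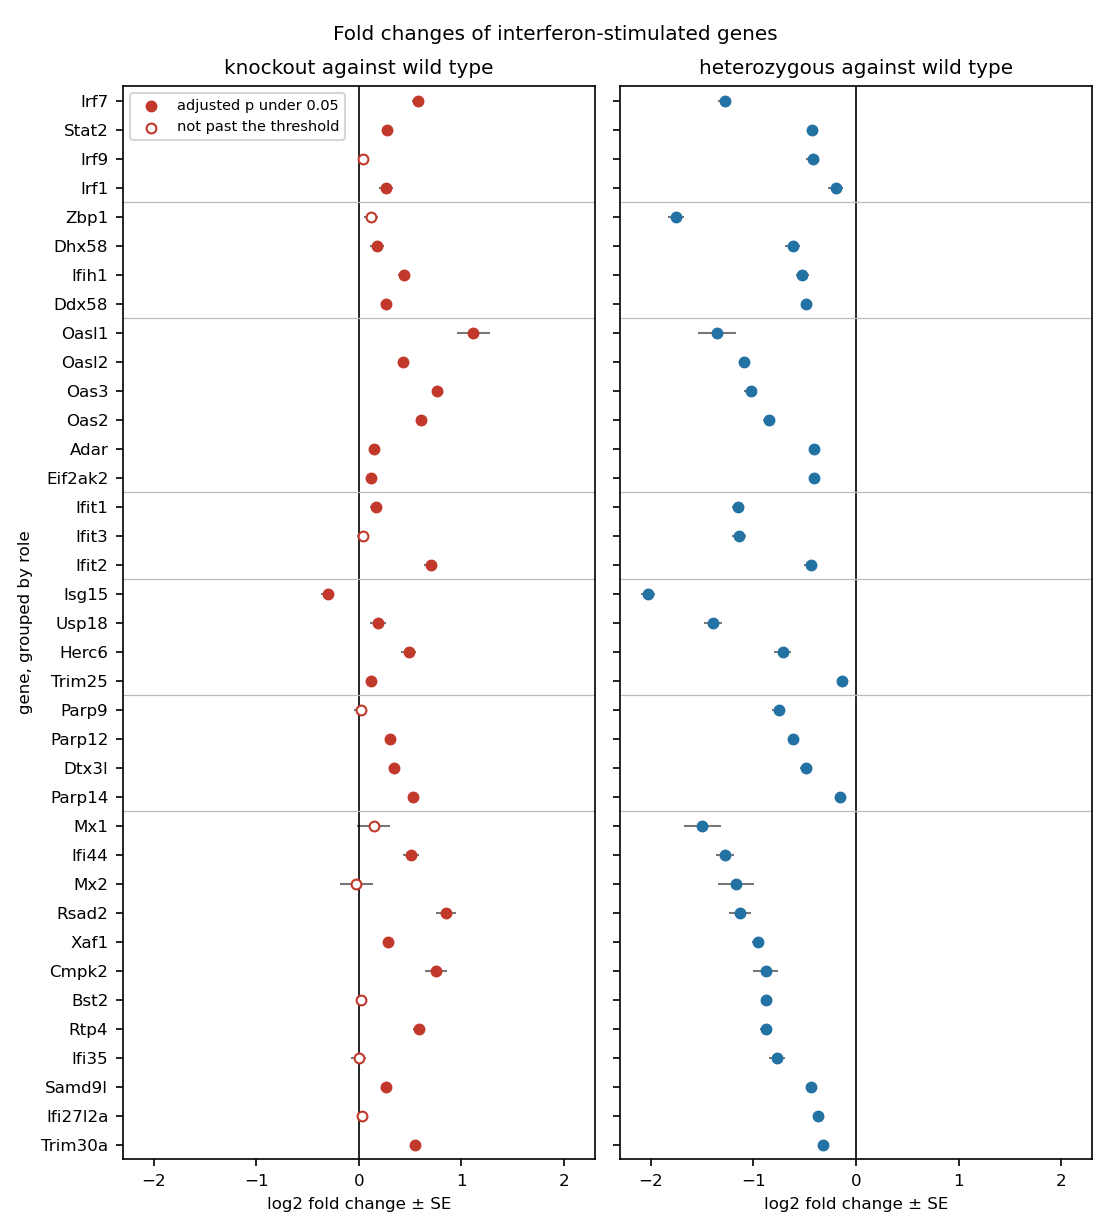
Points give the log2 fold change of each of the 37 genes with its SE, for knockout relative to wild type on the left and heterozygous relative to wild type on the right, filled where the edgeR adjusted p was under 0.05. All 37 points lie below 0 in heterozygous, and 27 filled points lie above 0 in knockout, with Isg15 the single filled point below.

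Of the 12 other effectors, 7 rose in knockout and 5 did not pass the threshold, and all 12 fell in heterozygous (median log2 -0.88). Bst2, which encodes tetherin, a membrane protein that holds budding virus at the cell surface, had 251 and 242 CPM in knockout, 135 and 128 CPM in heterozygous and 238 and 246 CPM in wild type. Knockout and wild type overlap (log2 0.02 ± 0.03, 95% interval -0.05 to 0.09, edgeR, adjusted p = 0.651), and heterozygous was at 54.4% of wild type (log2 -0.88 ± 0.04, edgeR, adjusted p = 9.22e-24). Rtp4, a chaperone of membrane receptors, was instead a gene with 3 separate levels. Rtp4 had 101 and 98.4 CPM in knockout, 36.9 and 35.6 CPM in heterozygous and 69.0 and 64.0 CPM in wild type (log2 0.59 ± 0.06 in knockout and -0.88 ± 0.06 in heterozygous relative to wild type, edgeR, adjusted p = 3.98e-12 and 3.7e-16). Xaf1, a partner of the apoptosis inhibitor XIAP, had 92.2 and 86.1 CPM in knockout, 37.3 and 38.0 CPM in heterozygous and 72.9 and 73.1 CPM in wild type (log2 0.29 ± 0.05 in knockout and -0.95 ± 0.06 in heterozygous, edgeR, adjusted p = 2.76e-05 and 1.31e-17). Ifi44 had 46.4 and 50.3 CPM in knockout, 13.5 and 14.5 CPM in heterozygous and 35.7 and 32.1 CPM in wild type (log2 0.51 ± 0.08 in knockout and -1.28 ± 0.09 in heterozygous, edgeR, adjusted p = 5.03e-07 and 3.73e-16). Both show the same order of genotypes as Rtp4.

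Rsad2, which encodes viperin, an enzyme that makes a chain-terminating nucleotide, and Cmpk2, a nucleotide kinase, lie 12751 bases apart on chromosome 12 and point away from each other. In knockout relative to wild type they were at 0.85 ± 0.10 and 0.75 ± 0.11 log2 (edgeR, adjusted p = 4.99e-10 and 1.82e-07), and in heterozygous at -1.13 ± 0.11 and -0.88 ± 0.12 (edgeR, adjusted p = 8e-12 and 5.52e-08). Trim30a, a TRIM protein that restrains NF-kB signalling in mouse, was at 0.55 ± 0.04 in knockout and -0.32 ± 0.05 in heterozygous (edgeR, adjusted p = 4.65e-14 and 2.48e-07), and Samd9l, an inhibitor of translation, at 0.26 ± 0.04 in knockout and -0.44 ± 0.04 in heterozygous (edgeR, adjusted p = 4.04e-07 and 3.54e-12). The dynamin-like GTPases Mx1 and Mx2 had the lowest levels per exon length of these effectors. Mx1 had 8.98 and 10.8 CPM in knockout, 2.74 and 3.55 CPM in heterozygous and 9.41 and 8.45 CPM in wild type. Mx2 had 9.44 and 10.4 CPM in knockout, 3.95 and 5.001 CPM in heterozygous and 11.7 and 8.48 CPM in wild type. Their knockout and wild-type libraries overlap (log2 0.15 ± 0.16 and -0.03 ± 0.16, edgeR, adjusted p = 0.534 and 0.924), and both fell in heterozygous (log2 -1.50 ± 0.18 and -1.17 ± 0.17, edgeR, adjusted p = 5.05e-09 and 3.95e-07). Ifi27l2a and Ifi35 also did not pass the threshold in knockout relative to wild type (log2 0.03 ± 0.04 and -0.00024 ± 0.07, 95% intervals -0.05 to 0.11 and -0.15 to 0.15, edgeR, adjusted p = 0.546 and 0.998). In heterozygous they were at -0.37 ± 0.04 and -0.77 ± 0.08 (edgeR, adjusted p = 2.69e-10 and 5.31e-11).

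Scaled by exon length, from the union of the exons of each gene in GENCODE vM21, Ifi27l2a and Bst2 had the highest levels. Ifi27l2a reached 329.8 ± 1.70 CPM per kilobase in knockout, 249 ± 5.20 in heterozygous and 322 ± 4.22 in wild type (SD, n = 2 each). Bst2 reached 273 ± 7.23 CPM per kilobase in knockout, 146 ± 5.49 in heterozygous and 268 ± 6.47 in wild type. Isg15 came next, with 79.0 ± 0.547 CPM per kilobase in knockout, 23.8 ± 0.576 in heterozygous and 97.6 ± 1.32 in wild type. The lowest in wild type was Mx1, with 2.61 ± 0.332 CPM per kilobase in knockout, 0.831 ± 0.152 in heterozygous and 2.36 ± 0.179 in wild type. These lengths are those of the GENCODE models, which need not be the annotation behind the counts.

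**Figure D4:**
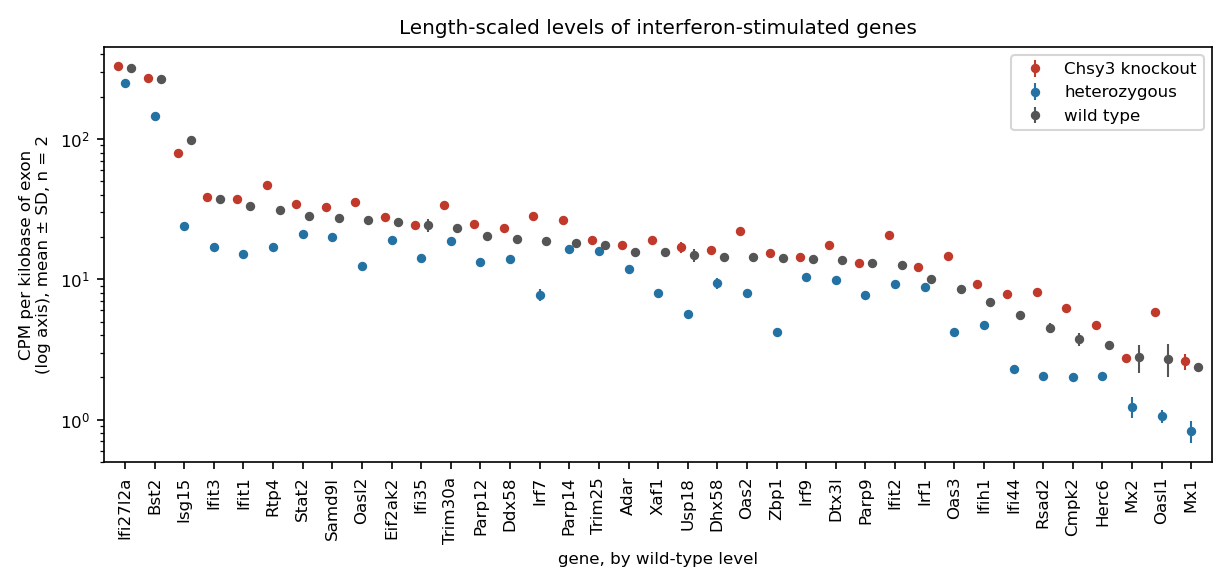
Points give the mean and bars the SD (n = 2) of CPM per kilobase of exon on a log axis for knockout, heterozygous and wild type, with the 37 genes ordered by their wild-type level. The heterozygous point is the lowest for every gene, from Ifi27l2a on the left to Mx1 on the right.

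The genes with the response element core had a median log2 fold change of 0.27 in knockout and -0.88 in heterozygous relative to wild type (11 genes), and those with a window but no match 0.32 and -0.66 (16 genes). The ranges of both sets overlap, from -0.30 to 0.85 and from -0.00024 to 1.12 in knockout, and from -2.03 to -0.32 and from -1.36 to -0.14 in heterozygous. The 37 genes lie on 14 chromosomes, none of them on X or Y, and 14 of the 37 have another of the 37 within 200000 bases.

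Genes upstream in the pathway were counted from lists of their own. Relative to wild type, 19.2% of all tested genes rose and 18.9% fell in knockout, and 19.2% rose and 19.7% fell in heterozygous. Of 21 interferon ligand genes, 20 had 0 counts in all 6 libraries, Ifnb1 and Ifng among them, and Ifnz had at most 7 counts in a library. A count of 0 allows at most 0.0880 to 0.104 CPM, with 3 counts as the limit per library and covering counting error only. Among 6 receptor genes, 3 rose and 0 fell in knockout, and 4 rose and 2 fell in heterozygous. Ifnar2, a chain of the type I interferon receptor, was higher in both, at 0.23 ± 0.04 log2 in knockout and 0.45 ± 0.04 in heterozygous relative to wild type (edgeR, adjusted p = 4.7e-05 and 2.6e-11). Il10rb, a chain shared with the lambda interferon receptor, was at 0.44 ± 0.05 in knockout and 0.20 ± 0.05 in heterozygous (edgeR, adjusted p = 8.97e-11 and 0.000492). Ifnlr1, named here after its values were seen, had 5 to 48 counts in a library. It was at -1.16 ± 0.61 log2 in knockout and -1.59 ± 0.64 in heterozygous (edgeR, adjusted p = 0.139 and 0.0442). The part of receptor levels in the changes of the 37 genes was not tested. The gamma receptor chains Ifngr1 and Ifngr2 were at 0.42 ± 0.05 and -0.19 ± 0.05 in heterozygous (edgeR, adjusted p = 2.67e-10 and 0.000965) and at 0.07 and 0.01 in knockout without passing the threshold (edgeR, adjusted p = 0.231 and 0.838).

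Among genes of receptor kinases and STATs, Jak1 was higher in both genotypes, at 0.34 ± 0.03 log2 in knockout and 0.39 ± 0.03 in heterozygous (edgeR, adjusted p = 5.41e-13 and 1.09e-14). Stat3 was at 0.07 ± 0.03 in knockout and 0.13 ± 0.03 in heterozygous (edgeR, adjusted p = 0.0576 and 0.000378), and the kinase gene Tyk2 at 0.18 ± 0.06 in knockout and 0.05 ± 0.06 in heterozygous (edgeR, adjusted p = 0.0159 and 0.6).

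Of 16 sensing adaptors, receptors and kinases, 9 rose and 0 fell in knockout (median log2 0.24), and 3 rose and 3 fell in heterozygous (median log2 -0.04). Of all tested genes 19.2% rose and 18.9% fell in knockout, and 19.2% rose and 19.7% fell in heterozygous. Ikbke, a kinase that activates Irf3 and Irf7, was at 0.85 ± 0.06 log2 in knockout and 0.06 ± 0.06 in heterozygous (edgeR, adjusted p = 5.83e-17 and 0.423). The endosomal RNA receptors Tlr7 and Tlr8 were higher in both, at 0.55 ± 0.04 and 0.50 ± 0.05 in knockout and 0.36 ± 0.04 and 0.45 ± 0.05 in heterozygous (edgeR, adjusted p at most 5.49e-10). Their adaptor Myd88 was at 0.31 ± 0.06 in knockout and -0.03 ± 0.06 in heterozygous (edgeR, adjusted p = 8.56e-06 and 0.738). Of 15 negative regulators 6 rose and 1 fell in knockout, and 4 rose and 2 fell in heterozygous, to be read beside the same shares of all tested genes. The phosphatase gene Ptpn6 was at 0.56 ± 0.04 log2 in knockout and -0.03 ± 0.04 in heterozygous (edgeR, adjusted p = 6.72e-16 and 0.614), Ptpn1 at 0.31 ± 0.04 in knockout and 0.15 ± 0.04 in heterozygous (edgeR, adjusted p = 2.96e-09 and 0.00164), and Ptpn11 at -0.29 ± 0.03 in knockout and -0.17 ± 0.03 in heterozygous (edgeR, adjusted p = 9.33e-10 and 5.2e-05). The nucleotide hydrolase gene Samhd1 was at 0.28 ± 0.04 in knockout and -0.07 ± 0.04 in heterozygous (edgeR, adjusted p = 2.21e-08 and 0.14).

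Interferon target genes outside the 37 mostly rose in knockout and fell in heterozygous. The shares of all tested genes were 19.2% higher and 18.9% lower in knockout, and 19.2% higher and 19.7% lower in heterozygous. Of 18 guanylate-binding proteins and IRG GTPases, which attack vacuoles of intracellular microbes, 15 were tested, 11 rose and 0 fell in knockout (median log2 0.68), and 0 rose and 10 fell in heterozygous (median log2 -0.68). Gbp2 had 63.0 and 63.4 CPM in knockout, 22.1 and 24.3 CPM in heterozygous and 39.2 and 40.5 CPM in wild type. Iigp1 had 33.6 and 36.4 CPM in knockout, 12.4 and 13.4 CPM in heterozygous and 20.5 and 20.8 CPM in wild type. Both stand at 3 separate levels. Irgm1 was at -0.05 ± 0.05 log2 in knockout and -1.0003 ± 0.05 in heterozygous (edgeR, adjusted p = 0.42 and 5.03e-21), and Gbp3 at 0.33 ± 0.10 in knockout and -0.99 ± 0.11 in heterozygous (edgeR, adjusted p = 0.00812 and 7.73e-10). Of 46 other interferon-stimulated genes 43 were tested, 27 rose and 3 fell in knockout (median log2 0.28), and 3 rose and 33 fell in heterozygous (median log2 -0.45). The 3 that fell in knockout were Isg20, Ifitm1 and Ogfr, and the 3 that rose in heterozygous were Ifitm2, Tor3a and Gvin1, named here after their values were seen. Lgals3bp, a secreted glycoprotein, was at 0.28 ± 0.02 in knockout and -0.50 ± 0.02 in heterozygous (edgeR, adjusted p = 2.02e-13 and 2.82e-21), and Slfn5, a Schlafen family gene, at 0.71 ± 0.04 in knockout and -0.30 ± 0.04 in heterozygous (edgeR, adjusted p = 2.91e-19 and 6e-08). Mndal, a gene of the Ifi200 cluster with near-identical neighbours, was at 0.34 ± 0.07 in knockout and -1.82 ± 0.08 in heterozygous (edgeR, adjusted p = 0.000101 and 1.76e-22). Tor3a was at 0.76 ± 0.04 in knockout and 0.18 ± 0.04 in heterozygous (edgeR, adjusted p = 9.9e-20 and 0.000402).

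**Figure D5:**
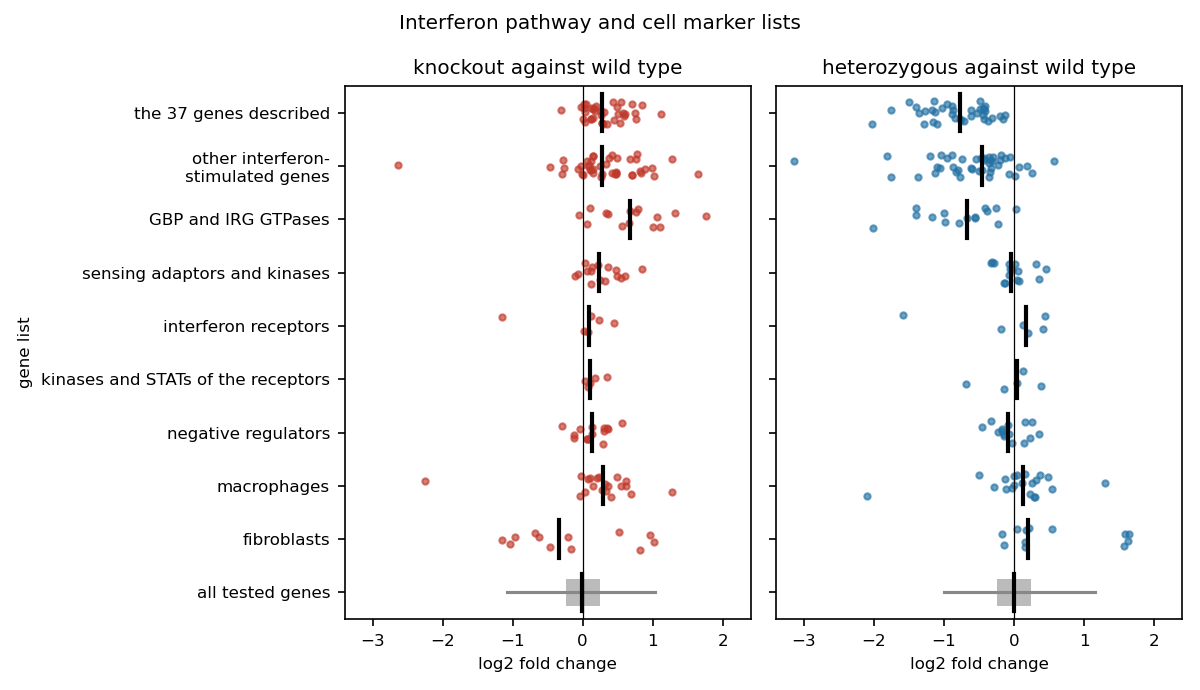
Points are tested genes of each list, black bars are medians, and the grey box and line at the bottom give the middle 50% and middle 90% of all tested genes, for knockout relative to wild type on the left and heterozygous relative to wild type on the right. The 3 lists of target genes have medians above 0 in knockout and below 0 in heterozygous, whereas receptors and macrophage markers have medians above 0 in both.

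Marker lists of other cell types differed in level, and each held a gene or genes with 0 counts in every library. Siglech, Klk1 and Pacsin1 of the 8 plasmacytoid dendritic cell markers had 0 counts in every library, 2 of the 8 were tested, and the list summed to 174 to 191 CPM in knockout, 221 to 227 CPM in heterozygous and 163 to 165 CPM in wild type. Of 11 lymphocyte and natural killer cell markers 7 had 0 counts in every library, Cd3e and Ncr1 among them, and the list summed to 0.182 to 0.528 CPM in knockout, 1.73 to 1.77 CPM in heterozygous and 0.147 to 0.412 CPM in wild type. Of 8 dendritic cell markers Cd209a had 0 counts in every library and the list summed to 14.3 to 15.8 CPM in knockout, 7.73 to 8.77 CPM in heterozygous and 12.2 to 14.6 CPM in wild type, mostly from Itgax, which macrophages also express. Of 8 neutrophil markers 6 had 0 counts in every library. Endothelial markers summed to 74.0 to 77.2 CPM in knockout, 26.0 to 28.9 CPM in heterozygous and 34.4 to 34.7 CPM in wild type, with Cldn5 at 0, and their part in the knockout increase was not tested.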

How the data were processed

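RNA was sequenced in 6 libraries of mouse nucleus pulposus cells, 2 per genotype. The authors deposited a table of raw read counts per gene symbol, with 1 column per library, assigned by its title. Per the submitters' processing notes, HISAT2 version 2.0.4 and the build GRCm38 were used. Not given in the sources used here are the counter, its annotation and its strand option, and reads of near-identical copies in the Ifit, Oas, Mx and Trim30 families may have been split or shared. Entries naming no gene numbered 0.

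The 37 genes and all lists were chosen with earlier results of these data known, and no set test was run. Genes passing the edgeR filter by genotype (16061) were scaled by TMM and fitted together (edgeR version 4.0.16, R version 4.3.3, robust quasi-likelihood, 3 residual degrees of freedom). Tests were two-sided, adjusted by Benjamini-Hochberg over all 16061 genes at 0.05. The SE is the absolute log2 fold change over the root of F. The procedure was tested on simulated counts. Levels per library in CPM were printed for Isg15, Irf7 and Stat2 and for up to 4 genes of each role with the smallest p-values. Adar, Eif2ak2 and 6 other effectors were given by fold change alone, and Mx1 and Mx2 were added after their values were seen. Up to 4 genes per pathway list were named by the same rule, and a few list genes and the counts of their list are not reported here. Positions come from GENCODE vM21 and promoters from RefSeq, both on GRCm38. Alternatives were RLE factors, library totals, no filter, a stricter filter of 50 counts in 2 libraries, DESeq2 version 1.42.0, fits of only the 4 libraries compared, a replicate block, and leaving out each library.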

Additional observations from a re-analysis of the deposited data

How the results depend on the processing

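Over 13 alternatives per comparison, 37 of 37 genes kept direction and call in knockout against heterozygous, 34 of 37 in heterozygous against wild type and 27 of 37 in knockout against wild type. The median log2 fold change of the 37 genes moved with the processing. With library totals alone it was 0.29 in knockout against wild type, -0.81 in heterozygous against wild type and 1.21 in knockout against heterozygous. The medians of all tested genes were then 0.0195, -0.044 and 0.0756. Leaving out single libraries gave medians of 0.26 to 0.29, -0.81 to -0.75 and 0.98 to 1.16 for the 37 genes. A left-out library leaves a lone sample that is assumed to vary like the other genotypes. Over the alternatives with 2 libraries per genotype, 24 to 27 genes were called higher and 1 lower in knockout against wild type. Of all tested genes 12% to 23.3% were then higher and 11.7% to 22.2% lower. In heterozygous against wild type 35 to 37 of the 37 genes were lower, against 12.4% to 23.4% of all tested genes. The direction in knockout against wild type reversed for genes that had not passed the threshold. Ifi35 was at 0.023 with library totals alone, 0.00012 with no filter, 0.0020 with the stricter filter and 0.0019 with a replicate block. Without knockout library 1 and without wild-type library 1, Ifi35 was at 0.031 and 0.11, Irf9 at -0.035 and -0.0089, Mx2 at 0.044 and 0.23 and Bst2 at -0.0030 and -0.00088, and Parp9 was at -0.029 without knockout library 2. Over all left-out libraries the ranges were -0.10 to 0.11 for Ifi35, -0.035 to 0.12 for Irf9, -0.24 to 0.23 for Mx2, -0.0030 to 0.051 for Bst2 and -0.029 to 0.062 for Parp9. The cause was not tested. With library totals alone 4126 genes were higher and 2256 lower in knockout against heterozygous, against 3070 and 2881 with TMM, and the 37 genes stayed higher.

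Same-numbered libraries did not deviate together (Pearson's r across 10040 genes 0.018 for knockout with heterozygous, 0.014 for knockout with wild type, -0.0071 for heterozygous with wild type), so the numbers were not taken as pairs. With the replicate block 26 of the 37 genes were higher and 1 lower in knockout against wild type, against 19.2% and 18.7% of all tested genes. The call of Usp18 was the only one of the 37 genes that the block changed in any comparison. The 2 libraries of a genotype differed by more than sampling noise (chi-square per degree of freedom 3.62 in knockout, 3.76 in heterozygous and 3.73 in wild type). Low counts limit the precision of Oasl1, Mx1 and Mx2 most, and the lowest of the 37 genes was 74, for Oasl1 in heterozygous library 1.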
